A study of Rattus norvegicus with 6 samples.

Results

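Messenger RNA of the 8 connexin genes Gja1, Gja4, Gja5, Gjb1, Gjb2, Gjb6, Gjc1 and Gjc3 and of the pannexin gene Panx1 was examined in the rat sciatic nerve before and after a crush injury. These 9 genes were picked by symbol from the 30957 genes of the mRNA table, and the rule used no level or fold change, although results of these data were known when they were proposed. The nerves came from 1-month-old Sprague-Dawley rats in 3 groups. In the D4 and D7 groups the middle of the left sciatic nerve was clamped with hemostatic forceps, and the nerve was taken 4 or 7 days later. The control group is labelled as normal, and the methods say that these rats were operated on but not clamped. RNA of 2 rats of each group, called a and b, gave 6 libraries of ribosome-depleted total RNA, and a rat a of one group has no tie to the rat a of another. By the study's description the injured samples were lesioned nerve tissue, a mixture of cell types.

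Connexins are membrane proteins that assemble into channels, and when the channels of neighboring membranes dock, a gap junction forms that lets ions and small metabolites pass. In myelinating Schwann cells, connexins also join successive turns of the same myelin sheath, which gives solutes a short path across the myelin. Pannexin 1 forms large membrane pores that release ATP to the outside of the cell and does not make gap junctions.

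The fragments counted on mRNAs ranged from 18727255 to 25350886 per library, and those on lncRNAs from 2694777 to 3043817. Levels are given as counts relative to the library total (CPM) after TMM scaling, which sets libraries on a common scale, and differences as log2 fold changes with their standard errors (SE) from edgeR. A gene is called changed when its Benjamini-Hochberg adjusted p-value is under 0.05 and its fold change is at least 2. After the filter on low counts 15195 genes were tested, with 8 of the 9 among them, and Gjb6 was not. In nerve tissue of mixed cell types, fewer cells of a type and less RNA per cell cannot be told apart. With 2 rats per group the spread between libraries is estimated from few animals.

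The labelled tissue was checked with lists of marker genes. All 9 genes of the list for myelinating Schwann cells were detected in both control libraries, with a summed FPKM (fragments per kilobase of transcript relative to the library total, a level per length) of 11923 in control a and 8098 in control b. Skeletal muscle markers summed to between 4.2 and 40.4 FPKM, and keratinocyte markers to at most 2.2. The control libraries were not alike in one respect. The 9 markers of pericytes and smooth muscle summed to 453 FPKM in control a and 2546 in control b, against 287 to 658 in the other 4 libraries. Adipocyte markers summed to 8.9 FPKM in D7 a, 256 in D7 b and 565 and 491 in the controls.

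On D4, 4 of the 8 tested genes were called. Panx1 and Gja1 rose, where 11.2% of all tested genes were called higher, and Gjb1 and Gjc3 fell, where 10.7% were called lower. On D7, Panx1 was still higher and Gjb1 still lower than in control, where 9.83% of tested genes were called higher and 9.02% lower. Gjc3 stood on D7 near its control level. Between D4 and D7, Gjc3 was the only one of the 8 to be called, and it rose, as did 1.68% of tested genes, while 0.494% of genes were called lower. Gja4, Gja5, Gjb2 and Gjc1 were called in none of these 3 comparisons. The D4 and D7 comparisons share the control libraries.

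**Figure D1:**
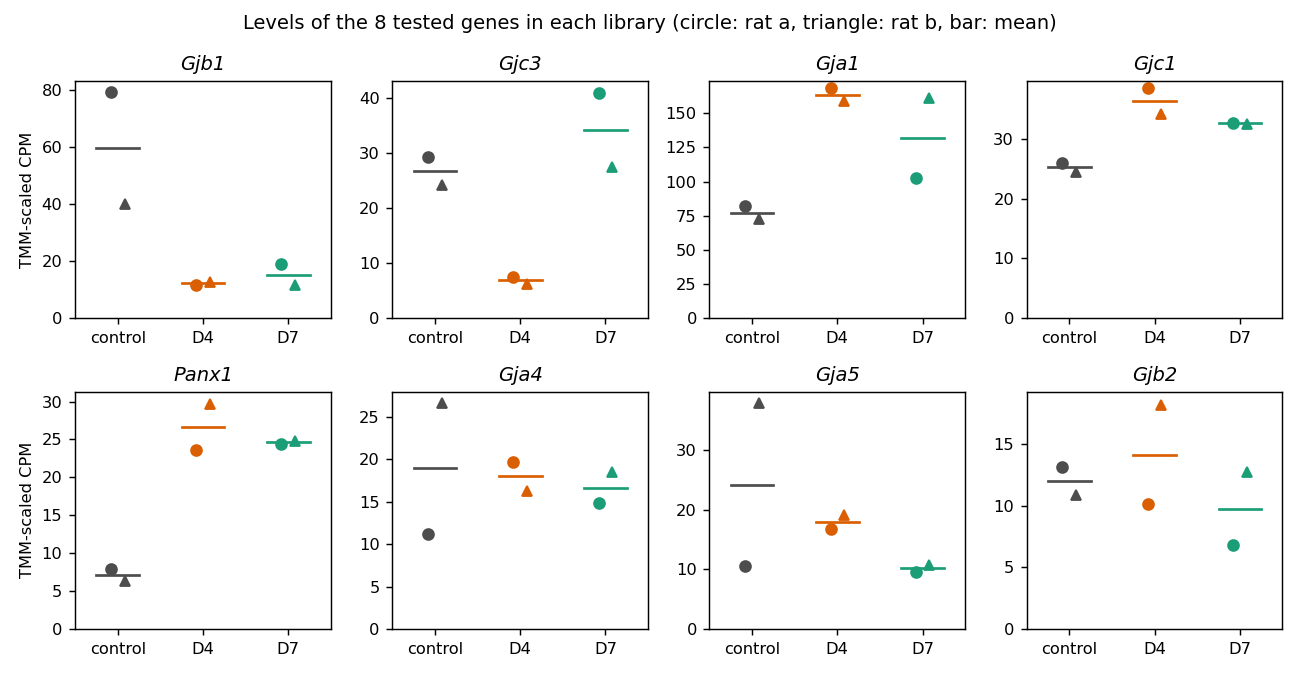
TMM-scaled CPM of the 8 tested genes in each of the 6 libraries, with circles for rat a, triangles for rat b and a bar for the mean of the 2 rats. The injured libraries of Gjb1 lie between 11.7 and 18.9 CPM, below both controls, and those of Panx1 between 23.6 and 29.6 CPM, above both controls, while Gjc3 is low only on D4.

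The 4 called genes are shown with the sequence next to their start, since the differences described below are theirs. The sequences are the 250 bases before the start of the RefSeq gene on the GRCr8 assembly, read on the coding strand, and are a reference sequence and not a measurement. Windows were found for 8 of the 9 genes, with none for Gjc1. The windows were searched on both strands for TGANTCA, the AP-1 motif that Jun family factors bind, for ACAAAG or ACAATG, the core of the motif of SOX factors, and for GCGTGGGCG, the motif of EGR factors. Matches are in capitals.
Gjb1: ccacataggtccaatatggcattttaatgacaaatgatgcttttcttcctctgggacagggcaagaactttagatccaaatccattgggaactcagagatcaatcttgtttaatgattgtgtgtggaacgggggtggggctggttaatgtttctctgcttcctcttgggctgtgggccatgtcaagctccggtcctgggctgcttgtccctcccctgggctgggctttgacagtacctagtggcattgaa
Gjc3: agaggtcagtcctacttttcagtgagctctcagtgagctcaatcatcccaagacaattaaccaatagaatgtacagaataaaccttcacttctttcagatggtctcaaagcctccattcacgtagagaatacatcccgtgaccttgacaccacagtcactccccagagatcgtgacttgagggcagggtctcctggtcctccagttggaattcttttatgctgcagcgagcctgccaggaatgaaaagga
Gja1: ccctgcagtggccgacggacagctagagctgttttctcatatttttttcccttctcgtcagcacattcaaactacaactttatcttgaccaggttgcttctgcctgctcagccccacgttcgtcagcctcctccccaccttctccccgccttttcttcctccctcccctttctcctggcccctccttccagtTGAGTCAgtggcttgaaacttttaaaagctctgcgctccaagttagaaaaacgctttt
Panx1: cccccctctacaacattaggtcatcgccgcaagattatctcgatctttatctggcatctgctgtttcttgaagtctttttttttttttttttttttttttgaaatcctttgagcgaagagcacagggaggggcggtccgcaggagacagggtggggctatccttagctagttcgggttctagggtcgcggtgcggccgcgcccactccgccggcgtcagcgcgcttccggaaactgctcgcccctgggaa
The Gjb1 window lies at chrX:70541595-70541844 on the plus strand, the Gjc3 window at chr12:22024568-22024817 on the minus strand, the Gja1 window at chr20:36302314-36302563 on the plus strand and the Panx1 window at chr8:20171201-20171450 on the minus strand. The Gja1 window held the only match among them, TGAGTCA at 58 to 52 bases before the start. TGANTCA occurs in 6.34% of the 33469 rat promoter windows of this length, the SOX letters in 25.3% and the EGR letters in 0.478%. The other 4 genes with a window held no match, save for one SOX match in the second of the 2 windows of Gjb6. A match of letters is no sign of binding. Which start these genes use in nerve was not examined. A window without a match therefore says nothing about other starts of the same gene. The Panx1 window held 19 CpG dinucleotides, Gja1 8, Gjc3 4 and Gjb1 2, where the median of all windows was 5. Among the genes that were not called or not tested, the 2 windows of Gjb6 held 19 and 5, Gjb2 16, Gja4 13 and Gja5 5.

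Gjb1 encodes connexin 32, the channel protein of noncompact myelin in Schwann cells, and its mutation causes an X-linked Charcot-Marie-Tooth neuropathy. The gene (ENSRNOG00000003746) lies on chromosome X at 71272042 to 71279977 of Rnor_6.0, the build of the files. It was at 79.3 and 40.2 CPM in control a and b, at 11.8 and 12.6 on D4, and at 18.9 and 11.7 on D7. All 4 injured libraries were below both controls, and the controls themselves differed 1.98-fold. Gjb1 fell by 2.29 on the log2 scale on D4 (SE 0.37, edgeR adjusted p = 0.00430) and by 1.97 on D7 (SE 0.37, edgeR adjusted p = 0.00903). Its mean was 20.4% of control on D4 and 25.6% on D7. The change from D4 to D7 was 0.32 (SE 0.37, edgeR adjusted p = 0.634), with a 95% interval from -0.57 to 1.21. A rise of more than 1.21 between the days thus lies outside that interval.

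Gjc3 encodes a connexin of Schwann cells and oligodendrocytes that is found at the inner face of the myelin sheath, next to the axon. Its entry (ENSRNOG00000001329) covers chromosome 12 at 19166239 to 19167015, a single stretch of 777 bp, while RefSeq gives the gene a span of 15008 bp on GRCr8, so that reads outside the 777 bp were not counted to it. Gjc3 was at 29.2 and 24.2 CPM in the controls, at 7.55 and 6.24 on D4, and at 40.9 and 27.5 on D7. Both D4 libraries were below the other 4 libraries, and the D7 and control values overlapped. Gjc3 fell by 1.95 on D4 (SE 0.23, edgeR adjusted p = 0.00138), which left 25.8% of control. From D4 to D7 it rose by 2.31 (SE 0.23, edgeR adjusted p = 0.0124), and the D7 mean was 128% of control. The difference between D7 and control was 0.36 (SE 0.22, edgeR adjusted p = 0.243), with a 95% interval from -0.18 to 0.89. The D7 against D4 call was lost when either D4 library was left out (log2 fold change 2.45, edgeR adjusted p = 0.154 without D4 a, and 2.18, edgeR adjusted p = 0.122 without D4 b). In each of these fits no gene of the whole table was called between the days.

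Gjb1 and Gjc3 were closer to each other in the control and D4 libraries than in those of D7. Since transcripts differ in length, the ratio was taken between FPKM values of one library. The log2 ratio of Gjc3 to Gjb1 was -0.04 in control a, 0.67 in control b, 0.75 and 0.39 in the D4 libraries and 2.51 and 2.64 in the D7 libraries. Both D7 libraries lay above the other 4. The ratio was not tested.

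The same days were marked by a lower level and a partial return of myelin genes. On the list for myelinating Schwann cells, 9 of 9 genes were called lower on D4, with a median log2 fold change of -5.82 against -0.04 for all tested genes. On D7, 7 of 9 were called lower, with a median of -2.54 against 0.01, and 6 of 9 were called higher on D7 than on D4. Ncmap, a myelin membrane protein, had the largest D4 fall of the list (log2 fold change -8.38), and Pllp, plasmolipin, the smallest (-2.10). Gjb1 and Gjc3 had smaller D4 differences than most of these genes. The D4 estimate was below that of Gjb1 for 8 of the 9 and below that of Gjc3 for 9, and the 95% intervals lay wholly below in 6 and 7 of them. On D7 the order was different. All 9 list genes were below Gjc3, 8 of them with the whole interval, while 5 were below and 4 above Gjb1. From D4 to D7 all 9 had a higher estimate than Gjb1, 6 of them with the whole interval above that of Gjb1. Prx, periaxin, reached 17.2% of control on D7 from 0.582% on D4, and Mag, myelin associated glycoprotein, 57.4% from 0.942%. These intervals were compared as a description, and differences between genes were not tested.

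**Figure D2:**
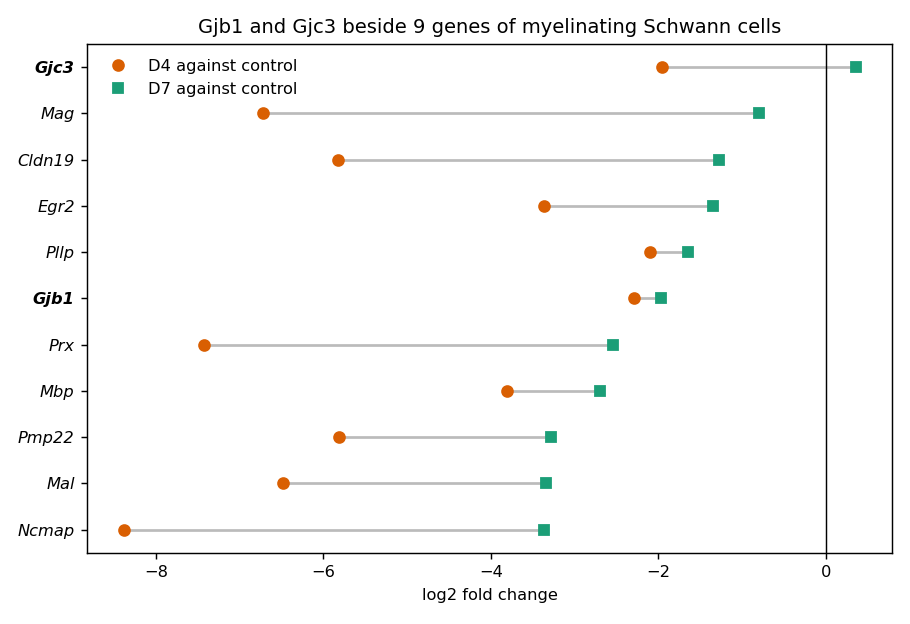
Log2 fold changes against control on D4 (circles) and D7 (squares) for Gjb1, Gjc3 (bold) and the 9 genes of the myelinating Schwann cell list, ordered by the D7 value. Gjb1 moves little between the days, from -2.29 to -1.97, whereas Gjc3 goes from -1.95 to 0.36, to the right of all 9 myelin genes.

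Gja1 encodes connexin 43, the connexin with the widest distribution in the body, found in fibroblasts, astrocytes, heart muscle and many other cells. The gene (ENSRNOG00000000805) lies on chromosome 20 at 37876650 to 37889089. It was at 82.0 and 72.4 CPM in the controls, at 168 and 159 on D4, and at 103 and 161 on D7. All injured libraries were above both controls, and D7 a was the lowest of them. Gja1 rose by 1.08 on D4 (SE 0.21, edgeR adjusted p = 0.00863), to 212% of control. This value is close to the fold minimum. It was 0.996, just under that minimum, without control b (edgeR adjusted p = 0.0423), and the test was missed without D4 a (log2 fold change 1.04, edgeR adjusted p = 0.0523). On D7 the log2 fold change was 0.77 (SE 0.21, edgeR adjusted p = 0.0326), under the fold minimum, and without D7 a it was 1.09 and called (edgeR adjusted p = 0.00484). Without D7 b it was 0.41 (edgeR adjusted p = 0.0661), and the edgeR adjusted p was 0.0506 with a replicate block by letter and 0.0667 in a fit of these 2 groups alone. The D7 and D4 values differed by -0.31 (SE 0.21, edgeR adjusted p = 0.407).

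Panx1 (ENSRNOG00000010060, chromosome 8 at 13566739 to 13606040) was the lowest of the 8 tested genes in control CPM and had the largest rise among them. It was at 7.93 and 6.33 CPM in the controls, at 23.6 and 29.6 on D4, and at 24.4 and 24.8 on D7. The injured and control libraries did not overlap. Panx1 rose by 1.90 on D4 (SE 0.18, edgeR adjusted p = 0.000558) and by 1.78 on D7 (SE 0.18, edgeR adjusted p = 0.00102), to 373% and 345% of control. Its D7 and D4 values differed by -0.11 (SE 0.16, edgeR adjusted p = 0.724), with a 95% interval from -0.51 to 0.29. Panx1 was called on both days under each of the 18 alternative settings tried.

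Markers of macrophages rose over the same days as Panx1 and Gja1. All 10 genes of the macrophage list were called higher on D4 and 9 on D7, with median log2 fold changes of 1.93 and 1.47, and the summed level went from 241 to 247 FPKM in control to between 1010 and 1340 in the injured libraries. Of the 9 markers of repair Schwann cells, the state that these cells take up after injury, 7 were called higher on each day. All 10 cell cycle genes were called higher on both days. Of the 8 fibroblast markers tested, none was called on D4 and 1 was called lower on D7. Their part in the rise of Panx1 or Gja1 was not tested.

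Gjc1 encodes connexin 45, known from vascular smooth muscle and the cardiac conduction system. The entry (ENSRNOG00000048838) spans chromosome 10 at 90781674 to 90909572. Its span of 127899 bp is longer than the 22807 bp that RefSeq gives on GRCr8, and no other gene of the mRNA table overlaps it. Gjc1 was at 26.0 and 24.5 CPM in the controls, at 38.5 and 34.1 on D4, and at 32.7 and 32.6 on D7. The injured libraries were all above both controls by a small amount. The log2 fold change was 0.52 on D4 (SE 0.11, edgeR adjusted p = 0.0101) and 0.37 on D7 (SE 0.11, edgeR adjusted p = 0.0391), both below the 2-fold minimum.

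**Figure D3:**
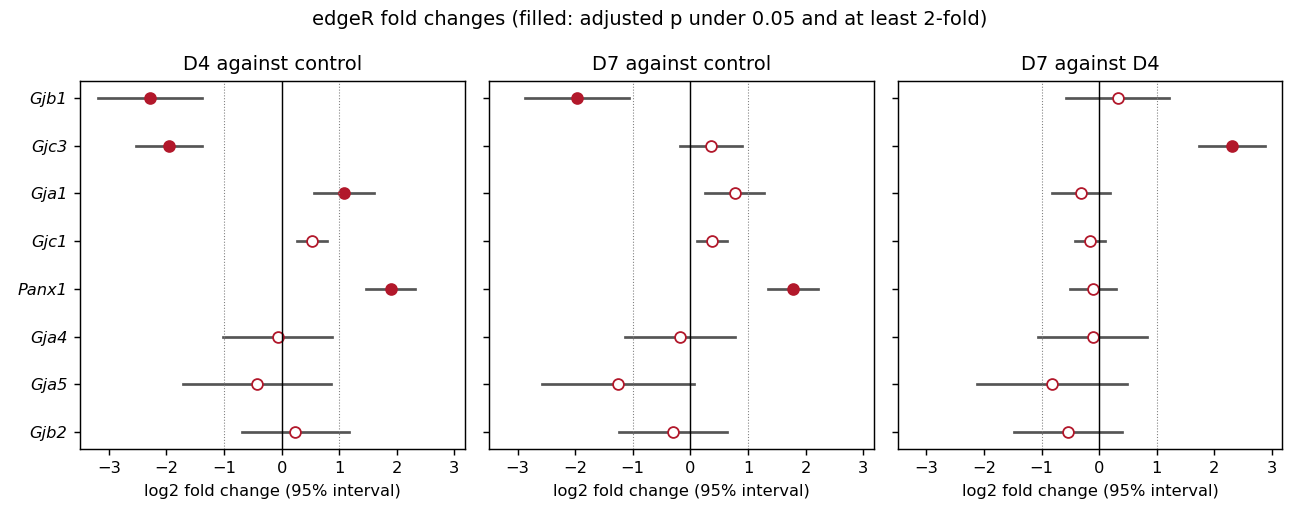
Log2 fold changes from edgeR with 95% intervals for the 8 tested genes in the 3 comparisons, filled where the gene was called, with dotted lines at a 2-fold change. Panx1 and Gjb1 are filled in both comparisons with control, and Gjc3 is the only filled point of D7 against D4, at 2.31.

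Gja4 and Gja5 encode connexin 37 and connexin 40, the connexins of arterial endothelium. Gja5 (ENSRNOG00000017484, chromosome 2 at 199162745 to 199184939) was at 10.6 and 37.9 CPM in control a and b, at 16.7 and 19.1 on D4, and at 9.58 and 10.7 on D7. Control b was 3.59-fold above control a, and the 4 injured libraries lay between or just below them. The log2 fold change was -0.43 on D4 (SE 0.53, edgeR adjusted p = 0.537) and -1.25 on D7 (SE 0.54, edgeR adjusted p = 0.118). The estimate rested on the choice of control library. Without control a it was -1.08 on D4 (edgeR adjusted p = 0.00574) and -1.90 on D7 (edgeR adjusted p = 0.00202), and without control b it was 0.76 on D4 (edgeR adjusted p = 0.0282) and -0.059 on D7 (edgeR adjusted p = 0.832). With DESeq2 the D7 difference of -1.27 was called (DESeq2 adjusted p = 0.0400).

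Gja4 (ENSRNOG00000014357, chromosome 5 at 145374690 to 145377221) was at 11.2 and 26.7 CPM in control a and b, at 19.7 and 16.3 on D4, and at 14.8 and 18.5 on D7. All 4 injured libraries lay between the controls, which differed 2.39-fold. Its log2 fold change was -0.07 on D4 (SE 0.39, edgeR adjusted p = 0.902) and -0.18 on D7 (SE 0.39, edgeR adjusted p = 0.741), with 95% intervals from -1.01 to 0.88 and from -1.13 to 0.77. These intervals leave changes close to 2-fold unresolved. Both signs turned when control b was left out.

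The control library with the high Gja4 and Gja5 values was the one with the high summed level of pericyte and smooth muscle markers. Of 9 such markers, 1 was called lower on D4 and 2 on D7. Of 10 tested endothelial markers, 4 were called lower on D4 and 8 on D7, with medians of -1.02 and -1.25. Of 6 markers of arterial endothelium, 3 were called lower on each day and 1, Hey1, was called higher on D7. Endothelial markers also summed highest in control b, at 305.5 FPKM, against 225.1 in control a and 107.4 to 183 after injury. Vwf made up much of the gap between the controls, with 33.5 FPKM in control a and 91.0 in control b. Cldn5, Emcn and Cdh5 were lower in control b than in control a, and the remaining endothelial markers were higher. Among the arterial markers, Sox17, Efnb2, Dll4 and Bmx were highest in control b, and Sema3g and Hey1 on D7. Their part in the values of Gja4 and Gja5 was not tested.

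**Figure D4:**
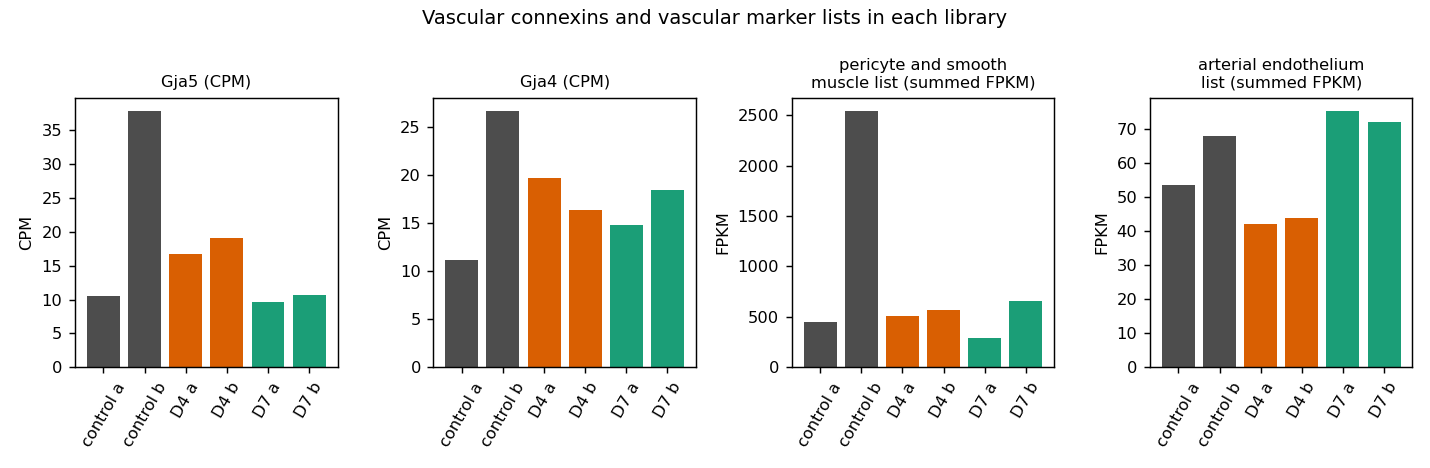
Levels of Gja5 and Gja4 (TMM-scaled CPM) and summed FPKM of the 9 pericyte and smooth muscle markers and the 6 arterial endothelial markers, with a bar for each library. Control b is the highest library for both genes and for the smooth muscle list, at 2546 FPKM. As plotted, the arterial sum is highest on D7, at 75.4 and 72.2 FPKM against 67.9 in control b. Sema3g and Hey1 of that list are highest on D7. FPKM carries no TMM factor, and the factors were 0.885 in control b and 1.06 and 1.08 on D7. The order of control b and D7 in this sum thus depends on the scale.

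Gjb2 and Gjb6 encode connexin 26 and connexin 30, known from epithelia, the inner ear and, for Gjb6, astrocytes. They are neighbors on chromosome 15, with 17612 bp between them, in a cluster of 111 kb with Gja3. Gjb2 (ENSRNOG00000008855, 37377316 to 37383277) was at 13.2 and 10.9 CPM in the controls, at 10.1 and 18.2 on D4, and at 6.81 and 12.7 on D7. The groups overlapped, and rats of one injured group differed up to 1.87-fold. The log2 fold change was 0.24 on D4 (SE 0.38, edgeR adjusted p = 0.640) and -0.30 on D7 (SE 0.39, edgeR adjusted p = 0.566). Gjb6 (ENSRNOG00000022116, 37400889 to 37410848) had 0 and 2 counts in the controls, 7 and 1 on D4, and 0 and 0 on D7. It was close to the limit of detection in every library, and no fold change was computed.

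Read per length, the order of the 9 genes differed between the groups. In control, Gjc3 and Gjb1 had the highest mean levels, 30.0 and 25.4 FPKM, followed by Gja1 with 21.6, and neighbors among these 3 overlapped in range. Gjc1 with 13.8 FPKM was below them in both libraries, and from Gjc1 through Gja4, Gja5 and Gjb2, with 10.5, 6.92 and 4.34 FPKM, each overlapped the next. Panx1 with 1.61 FPKM was below Gjb2 in both libraries. On D4, Gja1 led with 55.8 FPKM, ahead of Gjc1 with 24.3, Gja4 with 12.1 and Gjc3 with 9.47, and none of these ranges overlapped. Panx1, Gjb1, Gjb2 and Gja5 followed between 7.32 and 6.20 FPKM and could not be ordered. On D7, Gjc3 with 47.1 and Gja1 with 45.2 FPKM overlapped at the top, and Gjc1 with 21.9 came next. Gjb1 and Gjc3 together made up 55.8% and 40.7% of the summed FPKM of the 9 genes in the controls. On D4 they made up 12.7% and 12.01%, and on D7 45.2% and 29.4%. The share of Gja1 was 19.2% and 18.6% in the controls, 44.2% and 43.1% in the D4 libraries, and 24.0% and 36.8% in those of D7. The level of Gjc3 on this scale rests on its 777 bp entry.

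**Figure D5:**
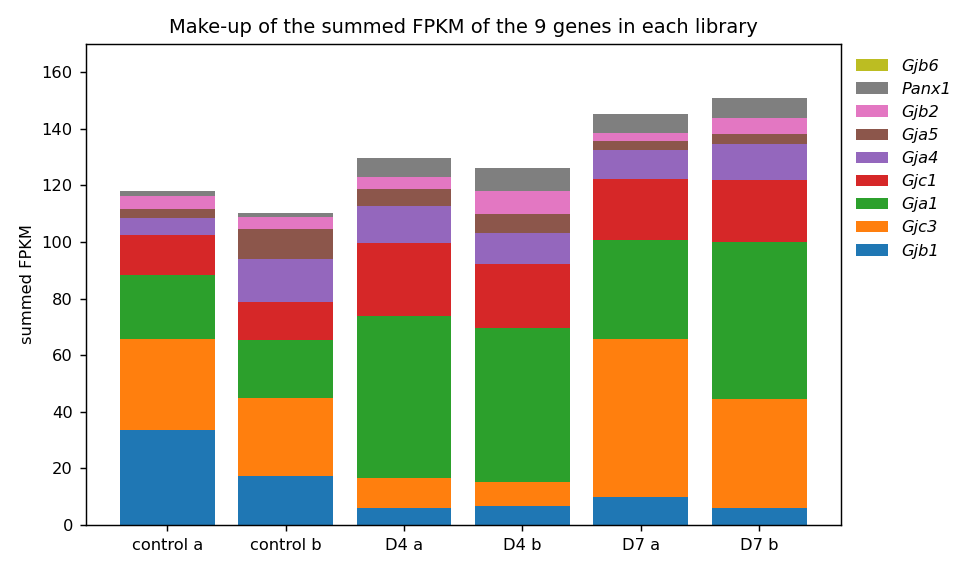
Summed FPKM of the 9 genes in each library, stacked by gene. The lower 2 blocks, Gjb1 and Gjc3, shrink from 55.8% and 40.7% of the sum in the controls to 12.7% and 12.01% on D4, and on D7 the Gjc3 block is large again while the Gjb1 block is not.

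Other connexin and pannexin genes that were looked at were low. Of 11 further symbols, 9 were listed in the mRNA table and 2, Gjb5 and Panx2, passed the filter on low counts. Gja10, Gjd2 and Gje1 had no fragment in any library. The 9 summed to between 1.3 and 3.1 FPKM. Gjb5 had 28 and 13 counts in the controls, 32 and 43 on D4, and 31 and 23 on D7, and Panx2 had 21 and 13, 13 and 24, and 0 and 10. The groups overlapped for both, and neither was called by edgeR, or reached an unadjusted p under 0.05, in any of the 3 comparisons.

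Long noncoding RNAs were searched within 10 kb of the 9 genes, and 5 transcripts lay there, of which 3 passed the filter in the separate lncRNA fit. On D4, 1 of the 3 was called, where 10.1% of the 14077 tested lncRNAs were called in either direction. On D7 against control and on D7 against D4 none was called, against 5.79% and 0.249% of tested lncRNAs. For these 2 comparisons, an unadjusted edgeR p under 0.05 was reached by 0 and 1 of the 3. The transcript called on D4 was NONRATT007816.2 (chromosome 12 at 19162181 to 19163267, 463 nt), which lies 2972 bp from the Gjc3 entry. It had 134 and 96 counts in the controls, 25 and 26 on D4, and 126 and 103 on D7. As for Gjc3, both D4 libraries were below the other 4. NONRATT007816.2 fell by 2.32 on D4 (SE 0.26, edgeR adjusted p = 0.00740), was at -0.10 on D7 against control (SE 0.24, edgeR adjusted p = 0.838), and differed by 2.22 between D7 and D4 (SE 0.26, edgeR adjusted p = 0.0640). DESeq2 and edgeR's exact test called the last difference, and neither called a nearby lncRNA on D7 against control. The D4 call was lost without D4 a (edgeR adjusted p = 0.0613) or D4 b (edgeR adjusted p = 0.0689). Whether the transcript lies inside the longer RefSeq span of Gjc3 was not tested, since that span is on another build. NONRATT027434.2, which overlaps Panx1, had 11 and 10 counts in the controls, 6 and 9 on D4, and 6 and 5 on D7, and was not called. NONRATT028268.2, which also overlaps Panx1, had 2 and 2 counts in the controls, 8 and 9 on D4, and 7 and 9 on D7. It did not pass the filter. Strand use in counting is not given in the sources used here, so reads of overlapping transcripts cannot be told apart.

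Of 19 genes for proteins that bind or regulate gap junction channels, 4 were called lower on D4 and none higher, where 10.7% and 11.2% of all tested genes were called. These were Cdh1, E-cadherin, an adhesion protein of noncompact myelin (-4.21, SE 0.30), Cdh2, N-cadherin (-1.21, SE 0.20), and the caveolins Cav1 (-1.46, SE 0.24) and Cav2 (-1.50, SE 0.29). On D7, Cdh1 (-3.08, SE 0.28), Cav1 (-2.01, SE 0.25) and Cav2 (-2.07, SE 0.30) were lower and Ezr, a linker of membrane proteins to actin, was higher (1.13, SE 0.18). The median of the list was -0.11 on D4 and -0.07 on D7, against -0.04 and 0.01 for all tested genes. Cdh1 had the largest difference of the 19. It had 10518 and 7650 counts in the controls, 589 and 807 on D4, and 1604 and 880 on D7.

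Receptors for extracellular nucleotides and adenosine, only some of which respond to ATP itself, moved in both directions. Of 17 tested receptors, 2 were called higher and 4 lower on D4, where 11.2% and 10.7% of all tested genes were called. P2ry6 (1.87, SE 0.26) and P2ry13 (1.36, SE 0.27) rose, and P2rx6 (-5.32, SE 0.99), P2ry2 (-2.57, SE 0.27), P2ry4 (-2.08, SE 0.56) and P2ry1 (-1.53, SE 0.19) fell. P2rx6 had 213 and 140 counts in the controls and 12 and 0 on D4. P2ry4 was low throughout, with 26 and 16 counts in the controls and 4 and 10 on D4. On D7, 5 were called higher, namely P2rx7 (2.04, SE 0.20), P2ry6 (1.38), P2rx4 (1.33), P2ry13 (1.10) and P2ry12 (1.003), and 4 lower, namely P2rx6 (-4.33), P2ry2 (-2.61), P2rx2 (-1.71) and P2ry1 (-1.41). Among all tested genes, 9.83% were called higher and 9.02% lower on D7. P2rx7 encodes the ATP-gated channel that is often studied together with pannexin 1. It had 755 and 623 counts in the controls, 752 and 1129 on D4, and 3856 and 2678 on D7. Its levels on D7 were above all other libraries, and it was the only receptor called between D4 and D7 (2.11, SE 0.20, edgeR adjusted p = 0.0117). The Panx1 difference between these days was -0.11.

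Enzymes of families that break down nucleotides or handle adenosine, and genes linked to pannexin 1, completed the lists. Of 10 tested enzymes, Enpp1 (-1.36, SE 0.23) and Enpp2 (-1.37, SE 0.14) were called lower on D4. On D7, Enpp1 was lower (-1.98, SE 0.23) and Nt5e, the ecto-5'-nucleotidase that forms adenosine, was higher (1.01, SE 0.24). Among all tested genes, 10.7% were called lower on D4, and 9.02% lower and 9.83% higher on D7. Of 5 proteases and kinases linked to pannexin 1, namely Casp1, Rock1, Rock2, Lyn and Fyn, none was called by edgeR on either day. On D4, Rock1, Rock2, Lyn and Fyn had an edgeR adjusted p under 0.05 with a fold change under 2. On D7 this held for Rock1, Rock2 and Fyn, and Lyn had an edgeR adjusted p of 0.0736. The closest to the fold minimum was Lyn on D4, a kinase of the Src family, at 0.94 (SE 0.16, edgeR adjusted p = 0.00463).

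The genes with the most similar profiles over the 6 libraries were listed for each tested gene, by the root mean square difference of centered log2 CPM among 11516 genes. The profile of Gjc1 was matched most closely, by Sec11a with a difference of 0.04. The nearest to Panx1 were Plat, the tissue plasminogen activator (0.06), Ccdc88b (0.06) and Rdh10 (0.09). Those nearest to Gjb1 were Abcg2, an efflux transporter (0.12), Sema6c (0.14) and Rimklb (0.15). For Gjc3 they were Pnmal2 (0.15), Plekha4 (0.22) and Adamts17 (0.24), and no gene of the myelin list was among the 3 nearest of Gjb1 or Gjc3. Gja5 was nearest to Cdh13 (0.19) and to Actn1 and Flna, which encode actin-binding proteins (0.21 and 0.22), and Gja4 to Heyl, a Notch target of vascular mural cells (0.10). The 3 nearest to Gja1 were Rps4y2, Medag and Tmem123, between 0.10 and 0.11. For Gjb2 the nearest were Pole4, Bst2 and Fndc5, between 0.21 and 0.23. The measure counts the size of a change as well as its shape. The myelin list had a median D4 change of -5.82, against -2.29 for Gjb1 and -1.95 for Gjc3. Its absence among the nearest genes therefore does not show a different shape. These are descriptions over 6 libraries.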

How the data were processed

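Sciatic nerves of 6 rats, 2 in each of the control, D4 and D7 groups, were analyzed. Groups and the library letters a and b were taken from the sample titles, and the letters name different rats. Total RNA depleted of ribosomal RNA was sequenced in pairs by the authors. Per the submitters' processing notes, HISAT2 2.0.4, StringTie 1.3.0, edgeR and the build Rnor_6.0 were used. The authors deposited fragment counts per gene and per lncRNA transcript, which are whole numbers without normalization, and FPKM values made from these counts. FPKM was used only to compare levels between genes and to sum marker lists, and it carries no TMM factor. The strand setting of the counting is not given in the sources used here. No per-sample column was left without a sample.

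The quasi-likelihood test of edgeR 4.0.16 in R 4.3.3 was run on counts past filterByExpr with TMM factors, in 1 fit of 6 libraries for mRNAs (15195 of 30957 genes) and 1 for lncRNAs (14077 of 22721). P-values were adjusted by Benjamini-Hochberg over all features tested, and p-values in the text are adjusted unless stated. They rest on a spread estimated from 2 rats a group, pooled over the 3 groups and moderated across genes. SE was the log2 fold change over the root of F. The procedure was also run on simulated counts, which checks the code and not the calls made here.

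The 9 genes and the marker and pathway lists were chosen with earlier results of these data known. Some genes of these lists are not reported here and were left out of the list counts. The genes named were all 9, called members of list counts of 5 or fewer, the extremes of longer lists, called lncRNAs within 10 kb, and the 3 genes of the most similar profile (pseudocount 0.5 CPM, mean of at least 5 CPM). Counts or shares of P2rx7, P2rx6, P2ry4, Prx, Mag, Gjb5 and Panx2 were given after their values were seen. The same holds for Lyn, Rock1, Rock2 and Fyn, the highest libraries and control levels of endothelial markers and the transcripts that overlap Panx1. Alternatives were a fit of the groups compared, the letter as a block, DESeq2 1.42.0, edgeR's exact test, no TMM or RLE factors, other filters and thresholds, only overlapping lncRNAs, and leaving out each library. Promoters came from RefSeq on GRCr8 and share no coordinates with the Rnor_6.0 entries. Figures were drawn with matplotlib 3.10.9. Values of the study's own comparisons were not used.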

Additional observations from a re-analysis of the deposited data

Results flagged for a closer look

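Groups of 2 rats are too small to mark a single library as standing apart. What could be marked were differences of the change at D7 from the change at D4, which, with shared controls, is the D7 against D4 comparison of edgeR. Of the 8 tested connexin and pannexin genes, Gjc3 was marked, at 2.31 on the log2 scale. Among the genes of the lists, 6 myelin genes were marked, all higher on D7: Mag (5.92), Ncmap (5.01), Prx (4.89), Cldn19 (4.54), Mal (3.14) and Pmp22 (2.53). Outside the myelin list the receptor P2rx7 (2.11), the Schwann cell gene Gfra3 (2.60) and the arterial gene Sema3g (1.61) were higher on D7. The growth factor gene Gdnf (-2.29) and the morphogen gene Shh (-1.30), both of the repair Schwann cell list, were lower on D7 than on D4. No cause of these differences was tested.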

How the results depend on the processing

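With 2 rats per group, the 95% intervals of Gja4, Gja5 and Gjb2 against control included 0 and changes close to 2-fold or larger. On D4 between 3 and 5 of the 8 genes were called over the 18 alternatives, against 4 as reported. On D7 against control, 4 were called with no fold minimum and 1 when the 2-fold change itself was tested, against 2 as reported. On D7 against D4, 0 were called at an adjusted p under 0.01 and 0 in the test of the 2-fold change, and leaving out one library gave 0 to 1, with 0 without D4 a or D4 b. The cause was not tested. Of lncRNAs near the genes, 0 were called on D4 when only overlapping transcripts counted, and leaving out one library gave 0 to 1. On D7 against D4, 1 was called by DESeq2, 1 by edgeR's exact test and 1 with at least 10 counts in every library, against 0 as reported. With no TMM factors the median of all genes moved from -0.04 to 0.25 on D4 and from 0.01 to 0.31 on D7, and Gja1 was also called on D7 (1.07).

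The replicate block by library letter gave 4, 2 and 1 called genes in the 3 comparisons and 1, 0 and 0 called lncRNAs, and the crossed replicate block, added after seeing the data, gave the same numbers. Deviations of libraries with the same letter correlated at 0.02 between control and D4, 0.22 between control and D7 and -0.17 between D4 and D7, and the letters name different rats.

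The sign of uncalled log2 fold changes turned in the following cases, with the range over leaving out each library. Gja4 on D4 was 0.029 with the replicate block, 0.022 with the crossed block, 0.21 without TMM factors and -0.57 to 0.69 with one library left out. Gja4 was 0.11 on D7 without TMM factors and -0.68 to 0.57 with one library left out, and -0.28 to 0.029 on D7 against D4. Gja5 on D4 ranged from -1.08 to 0.76, Gjb2 from -0.25 to 0.60 on D4 and from -0.82 to 0.11 on D7. On D7 against D4, Gjb1 ranged from -0.074 to 0.63 and Panx1 from -0.27 to 0.064. NONRATT007816.2 on D7 against control was 0.065 without TMM factors and -0.28 to 0.070 with one library left out. No direction turned among the called values of the 8 genes.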
